A study of Mus musculus with 2 samples.

Results

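S phase germ cells are those caught while they copy their DNA. Among cultured mouse germ cells, they were taken here as the cells whose UMIs (unique molecular identifiers, each standing for 1 captured mRNA) held the largest share of 7 replication genes, Pclaf, Rrm2, Mcm3, Mcm5, Mcm6, Cdc6 and Slbp. This share is the S score, given in CPM of the cell (UMIs of the genes for each 1000000 UMIs). The 800 highest S scores of both libraries together were taken, and cells that were also among the 800 highest M scores, the same share for the mitotic genes Ccnb1, Ube2c, Cenpf, Plk1, Aurka, Cdc20 and Cenpe, were left out. This gave 667 members of 8694 cells, and 7227 cells were in neither top set. Of the rest, 667 were in the M set alone, called the mitotic set below, and 133 were in both. The rule used measured expression, so the levels of the score genes in members are a description of the choice and no result, and the same holds for every comparison of members with other cells.

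The cells were established THY-1+ germ cells, cultures rich in spermatogonial stem cells (SSC), held on feeders of the mouse fibroblast line STO. Both libraries came from cultures whose passages are given as 9 to 12, although another label of the FGF9-treated library names a later last passage and the study's methods name passage 12. Their serum-free medium had FGF2 at 1 ng/ml, the co-receptor GFRA1 at 150 ng/ml and GDNF at 20 ng/ml. They then had 48 h with 0 (control) or 20 ng/ml FGF9 (FGF9-treated), for which the study moved them to medium holding FGF9 or albumin and calls the control cells free of growth factors, while the labels list GDNF, GFRA1 and FGF2 for both. There was 1 library per treatment and no replicate, so no test between treatments exists, and all intervals are 95% and cover counting error only.

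A cell that enters S phase has first loaded the MCM helicase onto its origins with ORC, CDC6 and CDT1. Cyclin E and CDK2 then release E2F factors from RB proteins, and E2F factors switch on the genes for nucleotide supply, DNA polymerases and fork proteins, while histone mRNA rises to package the new DNA. Sites that E2F factors bind are known from the promoters of many replication genes, with a run of T followed by a core of G and C. In spermatogonia these cycles serve both the renewal of stem cells and the expansion of progenitors.

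The promoters of score genes that hold such letters, and that of Cdc25a, one of the genes farthest above other cells in members, are shown because the members were chosen on the first and led by genes like the second. Each line is the RefSeq sequence (GRCm38.p6, the build of the files) from 250 bases before to 50 after the start of the gene, 5′ to 3′ on the strand of the gene. Capitals mark each match to TTTCCCGC, TTTGGCGC, TTTCGCGC or TTTGCCGC on either strand.
Pclaf: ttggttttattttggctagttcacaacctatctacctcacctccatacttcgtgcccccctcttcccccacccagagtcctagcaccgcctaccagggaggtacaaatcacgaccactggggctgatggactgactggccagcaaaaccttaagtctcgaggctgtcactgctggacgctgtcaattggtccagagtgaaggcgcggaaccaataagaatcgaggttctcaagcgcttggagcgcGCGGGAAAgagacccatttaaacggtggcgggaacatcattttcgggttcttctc
Mcm3: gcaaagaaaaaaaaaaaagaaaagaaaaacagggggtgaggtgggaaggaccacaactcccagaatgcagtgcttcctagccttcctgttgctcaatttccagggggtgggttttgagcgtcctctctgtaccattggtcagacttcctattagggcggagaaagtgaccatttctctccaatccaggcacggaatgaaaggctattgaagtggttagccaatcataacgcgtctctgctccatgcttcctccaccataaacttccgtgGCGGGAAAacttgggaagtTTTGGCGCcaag
Mcm5: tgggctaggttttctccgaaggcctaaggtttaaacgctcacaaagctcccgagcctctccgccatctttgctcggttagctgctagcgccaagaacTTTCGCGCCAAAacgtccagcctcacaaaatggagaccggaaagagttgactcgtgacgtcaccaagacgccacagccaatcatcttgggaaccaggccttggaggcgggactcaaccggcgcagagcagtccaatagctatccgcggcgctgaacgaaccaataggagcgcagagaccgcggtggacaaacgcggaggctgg
Mcm6: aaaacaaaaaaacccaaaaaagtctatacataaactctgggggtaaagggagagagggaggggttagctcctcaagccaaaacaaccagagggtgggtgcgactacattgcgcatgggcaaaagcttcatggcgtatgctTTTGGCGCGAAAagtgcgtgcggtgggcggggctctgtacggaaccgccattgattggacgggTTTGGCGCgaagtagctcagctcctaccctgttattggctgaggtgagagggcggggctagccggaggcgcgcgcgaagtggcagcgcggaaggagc
Cdc6: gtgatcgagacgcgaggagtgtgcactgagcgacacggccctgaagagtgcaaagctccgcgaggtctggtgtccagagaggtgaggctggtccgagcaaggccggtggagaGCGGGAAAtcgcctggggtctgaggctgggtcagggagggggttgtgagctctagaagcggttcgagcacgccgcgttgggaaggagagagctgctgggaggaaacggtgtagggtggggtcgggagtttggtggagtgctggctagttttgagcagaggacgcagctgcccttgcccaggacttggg
Cdc25a: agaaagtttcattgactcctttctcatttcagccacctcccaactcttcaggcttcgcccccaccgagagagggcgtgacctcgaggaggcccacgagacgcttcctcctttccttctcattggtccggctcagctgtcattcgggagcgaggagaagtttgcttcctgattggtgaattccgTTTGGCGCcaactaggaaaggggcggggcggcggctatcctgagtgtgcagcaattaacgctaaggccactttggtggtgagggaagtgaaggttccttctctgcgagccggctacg
The windows are, in the same order, chr9:65890073-65890372 (plus strand), chr1:20820263-20820562 (minus strand), chr8:75109259-75109558 (plus strand), chr1:128359656-128359955 (minus strand), chr11:98907901-98908200 (plus strand) and chr9:109875329-109875628 (plus strand). In Pclaf the match spanned the RefSeq start, from position -5 to 3 counted with the first transcribed base as 1. All positions are counted from the RefSeq start. GENCODE begins the genes Pclaf and Cdc6 farther upstream, at chr9:65890237 and chr11:98907801. It begins Mcm5 and Mcm6 farther downstream, at chr8:75109569 and chr1:128359664. These positions thus depend on the annotation, and the Cdc6 window shown lies wholly after the GENCODE start of that gene. Mcm3 held matches at 20 and 39, Cdc6 at -138 and Cdc25a at -67. In Mcm5 (-153 and -149) and Mcm6 (-110 and -106) a pair of matches on opposite strands overlapped, and Mcm6 had a further one at -47. The windows of Rrm2 and Slbp held none of these letters. Over all 32851 windows in the table, 2.26% held a match. Counted by gene, it was 6.03% of the 5339 genes compared below that had a window (322 genes), 24.3% of those higher in members (52 of 214) and 4.05% of those lower (3 of 74). A gene counted when any of its windows held a match. Of the lists used below, 4 of 8 licensing, 0 of 11 nucleotide supply and 0 of 23 mitosis genes with a window held one. A match is a run of letters, not a shown binding site, and these shares were not tested.

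The control library had 5312 barcodes with 71481926 gene UMIs and the FGF9-treated library 5959 with 72669787. After barcodes with under 2000 genes, over 20% mitochondrial UMIs or 40 or more UMIs of the fibroblast genes Vim and S100a6 were left out, 4157 control and 4537 FGF9-treated cells remained. Members were deeper than cells of neither set, with a median of 16988.5 UMIs in control and 15515 in FGF9-treated members against 14648 and 12180. The mitotic set was deeper still, at 20118 and 18845 UMIs, as were cells in both top sets, at 21709 and 18377.5. Members carried germ cell markers, with Dazl at 1913 and 1919 CPM and Ddx4 at 405 and 411 CPM in control and FGF9-treated members. The 8 germ cell markers listed summed to 4317 and 3506 CPM in members against 4192 and 3363 CPM in cells of neither set. Of the 8, 7 had at least 20 CPM in either set of both libraries. Their log2 ratios of members over cells of neither set ran from -0.71 to 0.15 as means of both libraries, with 3 above 0. Of 16 feeder markers only Lgals1 and Fn1 reached 20 CPM in members of both libraries. The 16 summed to 192 and 256 CPM in control and FGF9-treated members against 172 and 223 CPM in cells of neither set, with Sox7 at 0 UMIs in members of both libraries, and Bgn, Col1a2 and Col3a1 at 0 in control members. With a limit of 10 UMIs of Vim and S100a6 in place of 40, 87.7% of the members came from the FGF9-treated library, as with 40. Scores at equal depth are given below. The libraries shared 11 barcodes, and 1 member had such a barcode.

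FGF9-treated cultures held far more members than control cultures. Of control cells 82 were members (1.97%, 1.57 to 2.44), against 585 of FGF9-treated cells (12.9%, 11.9 to 13.9). The FGF9-treated library thus gave 87.7% (85.0 to 90.1) of members but 52.2% of all cells. The intervals do not overlap, and the difference between cultures has no replicate check. The mitotic set leaned the same way but less, with 4.69% of control and 10.4% of FGF9-treated cells, and cells in both top sets made up 0.409% and 2.56%. Over all cells, the median S score was 505 in control and 633 in FGF9-treated cells, and the median M score was 1168 and 1113.

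The size of this difference moved with how the score was read. With each cell thinned at random to 5000 UMIs (16 control and 22 FGF9-treated cells were shallower and dropped out), the members were 3.50% of control (2.96 to 4.11) and 11.5% of FGF9-treated cells (10.6 to 12.4). With Mcm3, Mcm5 and Mcm6 as the only score genes it was 3.15% and 12.0%, and 80.5% of the members stayed. Without Pclaf and Rrm2 it was 2.09% and 13.0%. The cell at rank 400 within its own library had a score of 866 in control and 1770 in the FGF9-treated library.

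**Figure D1:**
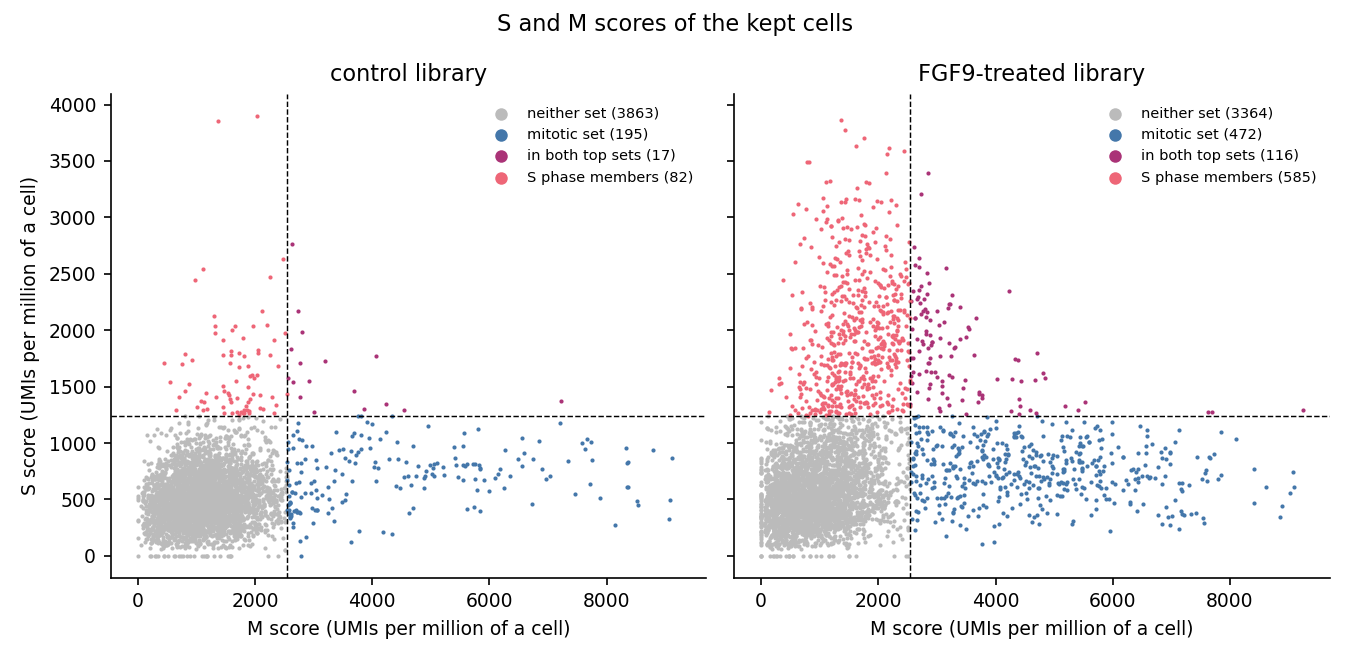
S score (vertical) against M score (horizontal) of each kept cell, in CPM of the cell, for the control (left) and FGF9-treated library (right); dashed lines are the scores of rank 800. The region of S phase members, upper left, holds 82 control and 585 FGF9-treated cells.

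The border of the set was not a gap. The score of rank 800 was 1244 and that of rank 801 was 1242, both among scores that reached 3903. The last 3 cells inside the top set had 28, 31 and 20 UMIs of the score genes and the first 3 outside had 20, 17 and 17. Within 10% of the border lay 292 cells, and 96 members (14.4%) were among them. FGF9-treated members also lay farther inside, with a median S score of 1890 against 1515 in control members.

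Of the score genes, Pclaf, a partner of the PCNA clamp, was at 89.2 (control) and 180 CPM (FGF9-treated) in members, against 3.41 and 11.9 CPM in cells of neither set. Rrm2, the small subunit of ribonucleotide reductase, was at 48.8 and 81.8 against 4.51 and 6.32 CPM. Cdc6, the helicase loader, was at 46.9 and 51.5 against 8.26 and 7.88 CPM. The helicase subunits Mcm3, Mcm5 and Mcm6 and the histone mRNA binding protein gene Slbp were nearer to the other cells, with log2 ratios of 1.59, 1.83, 1.73 and 1.42 as the mean of both libraries. These 4 were present at a fair level in cells of neither set, Mcm3 at 164 and 180 CPM and Slbp at 199 and 236 CPM.

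Beyond the score genes, UMIs were summed over the members and over cells of neither set in each library and compared as CPM. A gene was called when its log2 ratio passed 0.5 the same way in both libraries with both intervals off 0, among genes with at least 20 CPM in either set of both libraries. Of 6564 genes 271 were higher in members (4.13%) and 95 lower (1.45%), so 74.0% of calls were higher. With DESeq2 size factors there were 331 and 52, or 86.4% higher. The median log2 ratio over all 6564 genes was -0.03. Of the 271, 70 had passed the level filter only because members were high. Of the 271 genes 109 were in the lists described next and 162 were in none. In the lists, genes whose level in the other cells was under 20 CPM in a library numbered 1 of 10 for licensing, 5 of 14 for firing, 3 of 26 for polymerases, 1 of 16 for chromatin assembly, 2 of 7 for cluster histones, 1 of 10 for E2F and RB, 6 of 17 for cyclins, 4 of 22 for repair, 1 of 12 for cohesin, 2 of 28 for mitosis and 2 of 10 for meiosis. A gene let in by members alone had to differ, so these counts and medians describe the lists and support nothing further.

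Genes that prepare origins were higher in members of both libraries. Of 10 licensing genes compared 7 were higher and none lower, with a list median of 1.02 on the log2 scale. Gmnn, the geminin gene, whose protein binds CDT1 to stop a second round of licensing, was at 240 and 248 CPM in members of the control and FGF9-treated libraries, against 67.9 and 61.2 CPM in cells of neither set. Its log2 ratios were 1.82 (1.67 to 1.98) and 2.02 (1.94 to 2.10). Orc1, the cell cycle-regulated subunit of the origin recognition complex, was at 56.7 and 58.7 against 16.8 and 21.0 CPM. Cdt1 was at 86.0 and 96.5 against 41.9 and 44.2 CPM, while Orc2, Orc3 and Orc4 had mean ratios between -0.08 and 0.20 and were not called. Of the ORC subunits, Orc1 and Orc6 were called, and Orc5 was under the level needed.

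Genes of origin firing and of the fork helicase followed, with 11 of 14 higher and a median of 1.03. Cdc45, which joins MCM and GINS in the active helicase, was at 94.4 and 130 CPM in members against 29.3 and 30.7 CPM. Gins2 was at 44.3 and 50.6 against 12.9 and 13.7 CPM, and Mcm10 at 54.1 and 63.1 against 17.6 and 21.8 CPM. Of 26 genes of polymerases, the clamp and the lagging strand 17 were higher (median 0.82). Dscc1, part of a clamp loader that acts in cohesion, had the widest ratio of this list, at 56.0 and 62.7 against 9.00 and 11.2 CPM. It too was compared only because members were high. Prim1, the catalytic subunit of primase, was at 115 and 139 against 31.7 and 29.3 CPM. Pcna, the clamp itself, was at 274 and 350 against 84.5 and 105 CPM, and Lig1, which joins Okazaki fragments, at 242 and 288 against 87.1 and 93.8 CPM. In nucleotide supply 6 of 12 were higher (median 0.54), among them the thymidine kinase gene Tk1 at 55.4 and 82.7 against 20.8 and 30.2 CPM. In all of these genes the members of both libraries lay above the other cells of both libraries.

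**Figure D2:**
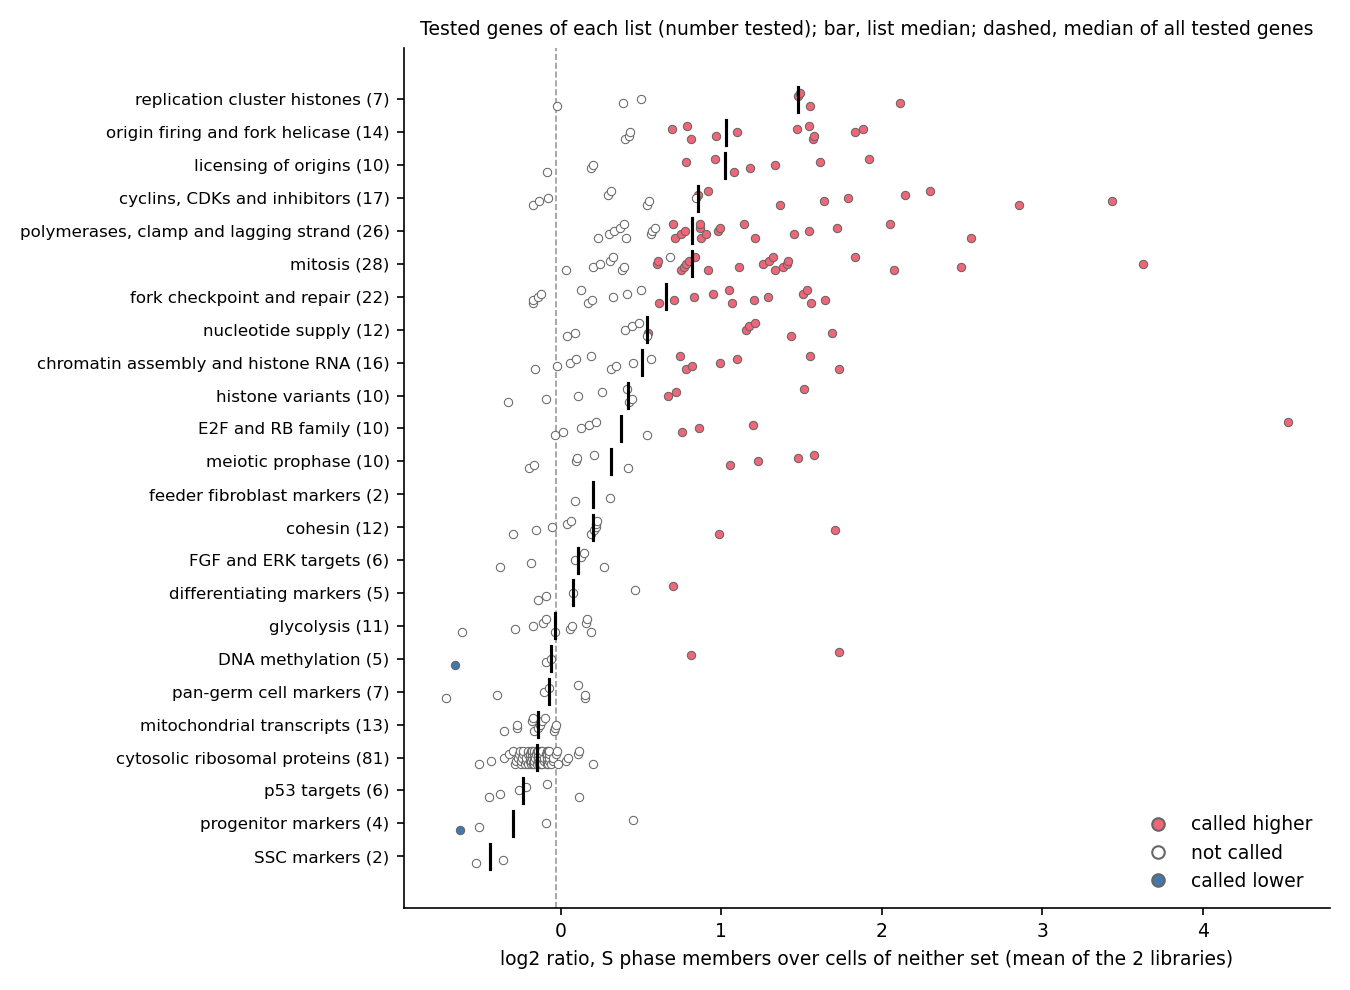
Mean over both libraries of the log2 ratio of S phase members over cells of neither set (horizontal) for each gene compared, by list; filled points are called genes, bars list medians and the dashed line the median of -0.03 over all genes. Replication lists lie to the right, with medians of 0.54 to 1.48 for nucleotide supply, polymerases, licensing, firing and cluster histones. The mitosis (0.82) and cyclin (0.86) lists lie there too. Medians are 0.08 for differentiating and -0.07 for pan-germ markers, -0.14 for ribosomal and mitochondrial genes, -0.30 for progenitor and -0.44 for SSC markers.

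Genes that package new DNA were split. Of 67 histone genes of the replication-dependent clusters 7 reached the level needed. Most mRNAs of this class lack a poly(A) tail, by which the capture works. Of the 7, 4 were higher, the linker histone genes Hist1h1a and Hist1h1b and the core histone genes Hist1h2aa and Hist1h2ap. Hist1h1a was at 239 and 360 CPM in members against 105 and 103 CPM, and Hist1h2aa at 35.2 and 24.2 against 6.62 and 6.83 CPM. Hist1h2bc, named after its values were seen and under the level needed, went the other way, with 1 UMI in control members (0.651 CPM) and 44 in FGF9-treated members (4.56 CPM) against 11.1 and 18.2 CPM in cells of neither set. The interval of its log2 ratio in the FGF9-treated library was -2.47 to -1.56. Among 16 genes of chromatin assembly and histone mRNA 7 were higher (median 0.51), with the histone chaperone gene Nasp at 735 and 897 against 237 and 323 CPM. Of 10 histone variant genes 3 were higher, among them H2afx, whose product marks DNA breaks, at 216 and 139 against 63.5 and 57.8 CPM. Members of the same gene families can share reads, which the counting may split.

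The widest ratio of all was that of E2f8, an E2F family member that represses its targets late in S phase (mm10 chr7:48866429-48881596, minus strand). In members it was at 28.0 (control) and 30.1 CPM (FGF9-treated), against 0.973 and 1.62 CPM in cells of neither set, log2 ratios of 4.85 (4.25 to 5.44) and 4.21 (3.84 to 4.60). E2f8 was compared only because members were high, so it had to differ. In the E2F and RB list 4 of 10 were higher, E2f8, E2f1, Mybl2 and Tfdp1, while E2f3 and E2f6 had mean ratios of 0.54 and 0.22 and were not called. With scores on thinned cells, and with 400 cells of each library, 1 of 9 compared was higher. E2f1, an activator, was at 57.3 and 90.6 against 24.8 and 39.8 CPM. Of 17 cyclin, CDK and inhibitor genes 9 were higher (median 0.86), and 6 of the 17 were compared only because members were high. Fbxo5, which encodes the APC/C inhibitor EMI1, was at 52.1 and 84.7 against 5.84 and 6.46 CPM. Cdc25a, the phosphatase that activates CDK2, was at 59.9 and 80.5 against 6.98 and 13.2 CPM. The cyclin E genes Ccne1 (30.0 and 47.8 against 6.81 and 8.64 CPM) and Ccne2 (30.6 and 34.5 against 10.6 and 8.32 CPM) lay higher too, as did the cyclin A gene Ccna2 (134 and 171 against 31.2 and 37.1 CPM).

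Fork protection and repair genes were higher for 12 of 22 (median 0.66). Chek1, the kinase that restrains forks under stress, was at 70.3 and 112 against 24.1 and 33.2 CPM, and Brca1 of homologous recombination had a mean ratio of 1.54. Of 12 cohesin genes only Esco2 and Cdca5 were called, both of which act to establish or keep cohesion after the fork has passed. Esco2, the acetyltransferase, was at 262 and 335 against 92.1 and 89.3 CPM, whereas Smc3 and Smc1a of the ring had mean ratios of 0.22. For DNA methylation, Uhrf1 (178 and 258 against 52.6 and 78.7 CPM), which brings DNMT1 to newly copied DNA, and Dnmt1 (341 and 413 against 197 and 233 CPM), the maintenance enzyme, were higher. Dnmt3a, a de novo enzyme, was lower at 43.6 and 41.4 against 75.0 and 60.0 CPM, and Dnmt3b was not called. The call of Dnmt3a was lost with TMM or DESeq2 factors, on thinned cells and with 400 cells of each library. It was also lost with the 1200 highest scores, with Mcm3, Mcm5 and Mcm6 as the only score genes and with a mitochondrial limit of 10%. The same held with FGF9-treated members thinned at random to the number of control members. Outside the lists, Fam111a, which binds PCNA, and Neil3, a repair glycosylase, were farthest above the other cells, with mean ratios of 2.93 and 2.40. The testis alpha-tubulin genes Tuba3a and Tuba3b (1.83 and 2.04) are near-identical and may share reads.

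Members were not free of mitotic mRNA. Of 28 mitosis genes 20 were higher in members than in cells of neither set (median 0.82), although the 800 cells with the highest M score had been taken out. Mki67, which coats mitotic chromosomes and is a common marker of cycling cells (mm10 chr7:135689784-135716361, minus strand), was at 213 (control) and 314 CPM (FGF9-treated) in members, against 14.3 and 30.5 CPM. Top2a, a topoisomerase, was at 557 and 716 against 107 and 117 CPM. The M score itself had a median of 1708 in control and 1610 in FGF9-treated members against 1122 and 864 in cells of neither set.

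None of 7 pan-germ, 2 SSC, 6 FGF and ERK, 6 p53, 11 glycolysis, 81 ribosomal and 13 mitochondrial genes compared was called between members and cells of neither set, beside 4.13% higher and 1.45% lower over all genes, which would leave most lists this short without a call. Ret, the GDNF receptor, was at 22.8 and 85.3 CPM in members against 35.1 and 115 CPM, and Zbtb16 at 128 and 120 against 166 and 151 CPM, log2 ratios of -0.53 and -0.36 as means, lower in both libraries with intervals off 0 but short of the call in one or both. Crabp1, a retinoic acid binding protein gene of differentiating spermatogonia, was higher at 142 and 72.6 against 93.3 and 41.6 CPM, the only one of 5 in its list. The Crabp1 call was lost with 400 cells of each library. Nanos3, a progenitor gene, was lower at 87.3 and 86.1 against 147 and 122 CPM, 1 of 4. This call was lost with TMM or DESeq2 factors, with scores on thinned cells and with 400 cells of each library. It was also lost with the 1200 highest scores, without Pclaf in the score and with Mcm3, Mcm5 and Mcm6 as the only score genes. The same held with a mitochondrial limit of 10% and with the mean over cells of each cell's CPM. The KIT antibody tag had a median of 475 counts in control and 306 in FGF9-treated members, against 437 and 307 in cells of neither set. For each 10000 gene UMIs it was 281 and 194 in members against 307 and 254, so the order turned in control. Of 10 genes of meiotic prophase 4 were higher, Dmc1, Meioc, Hormad1 and Smc1b. Smc1b, a cohesin subunit of meiosis, was at 948 and 904 against 431 and 462 CPM, and the recombinase gene Dmc1 at 24.7 and 24.3 against 7.85 and 8.53 CPM, while Sycp1, Sycp2 and Sycp3 of the synaptonemal complex had mean ratios of 0.10, 0.10 and -0.17.

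The 95 genes lower in members formed no listed group, since only Dnmt3a and Nanos3 were in a list, and 46 of them had passed the level filter only through the other cells. Their ratios were modest. The phosphatase gene Ppp3ca was at 26.0 and 27.1 CPM in members against 50.5 and 52.1 CPM, and Jun, an immediate early factor, at 41.0 and 17.6 against 67.5 and 38.7 CPM. The lowest mean ratios were -1.19 for Msantd4 and -1.13 for Cryz. This side of the comparison rested on the choice of cells: with the 400 highest scores of each library, 4 genes were lower and 80 higher, of which 3 and 80 were among the 95 and 271. With scores on thinned cells it was 15 lower and 137 higher. In the set of 400 per library the replication lists kept 6 of 7 licensing, 5 of 11 firing and 6 of 17 polymerase genes. Of the mitosis, E2F and RB, and cohesin genes called higher, 10 of 20, 1 of 4 and 1 of 2 were kept.

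Set beside the mitotic set, members had more mRNA of replication genes and less of mitotic genes. Of 6446 genes 221 were higher in members (3.43%) and 149 lower (2.31%), by the same rule. The highest ratios belonged to Hist1h2aa, Fam111a, E2f8, Ccne1, Dscc1, Hist1h1a, Ccne2 and Ift27, a gene of ciliary transport. Ccne1, at 30.0 and 47.8 CPM in members, was at 8.42 and 11.7 CPM in the mitotic set, log2 ratios of 1.83 and 2.03. All 4 cluster histone genes called above were called here as well, with 6 of 10 licensing, 7 of 14 firing and 10 of 26 polymerase genes. Of 28 mitosis genes 20 were lower and none higher. Aspm, a spindle pole gene, was at 29.3 and 42.9 CPM in members against 133 and 176 CPM, and Pttg1, which encodes securin, at 52.7 and 41.1 against 166 and 170 CPM. Fbxo5 (0.09 and 0.54), Hmgb2 (0.08 and -0.14) and Top2a (-0.41 and -0.36) had small ratios between these sets and were not called. Ccna2 was the reverse of its place against other cells, with -0.79 and -0.91, since it was at 231 and 319 CPM in the mitotic set.

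**Figure D3:**
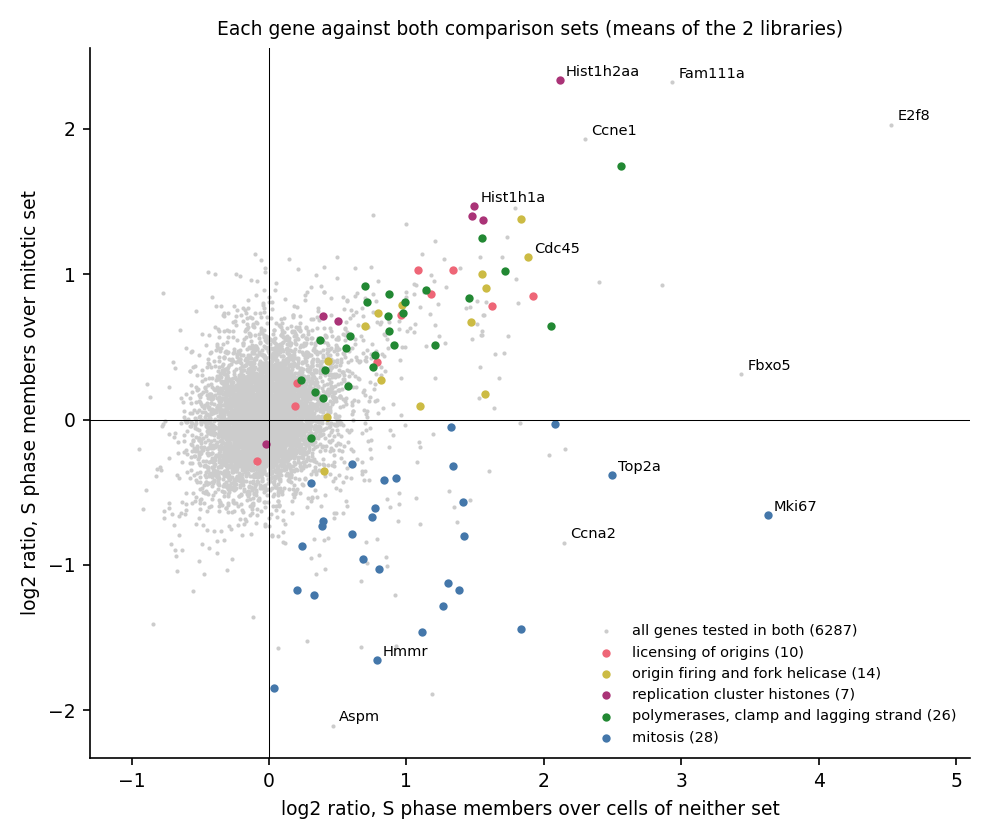
Mean log2 ratio of S phase members over cells of neither set (horizontal) and over the mitotic set (vertical) for each of 6287 genes compared with both, score genes left out; colours mark 5 lists. Licensing, firing, polymerase and histone genes lie mostly at upper right, and most mitosis genes at lower right, with Mki67 and Top2a higher than in cells of neither set and below 0 against the mitotic set.

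Levels fell along the score on both sides of its border. In the FGF9-treated library, Mki67 was at 368, 365 and 219 CPM in its members among the first 200, the next 200 and the remaining members by pooled rank (193, 178 and 214 cells). It was then at 102, 76.8 and 42.8 CPM in the next 154, 129 and 340 cells, and at 16.5 CPM in the 900 cells of that library among the lowest 2000. Pcna went from 452 to 84.4 CPM and Hist1h1a from 438 to 95.5 CPM over the same cells. E2f8 went from 39.8 to 0.641 CPM, so that it was nearly limited to the upper ranks. In control the order was alike with wider intervals, as only 7, 22 and 53 cells stood in the member ranks. Sohlh1, a differentiation factor gene, appeared to rise down the ranks when both libraries were pooled, from 97.2 to 167 CPM, but the share of control cells rose along with it, from 7 of 200 to 1100 of 2000. Within the FGF9-treated library Sohlh1 was at 94.2 CPM in the first and 101 CPM in the last of these bins, and within control at 181 and 212 CPM.

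**Figure D4:**
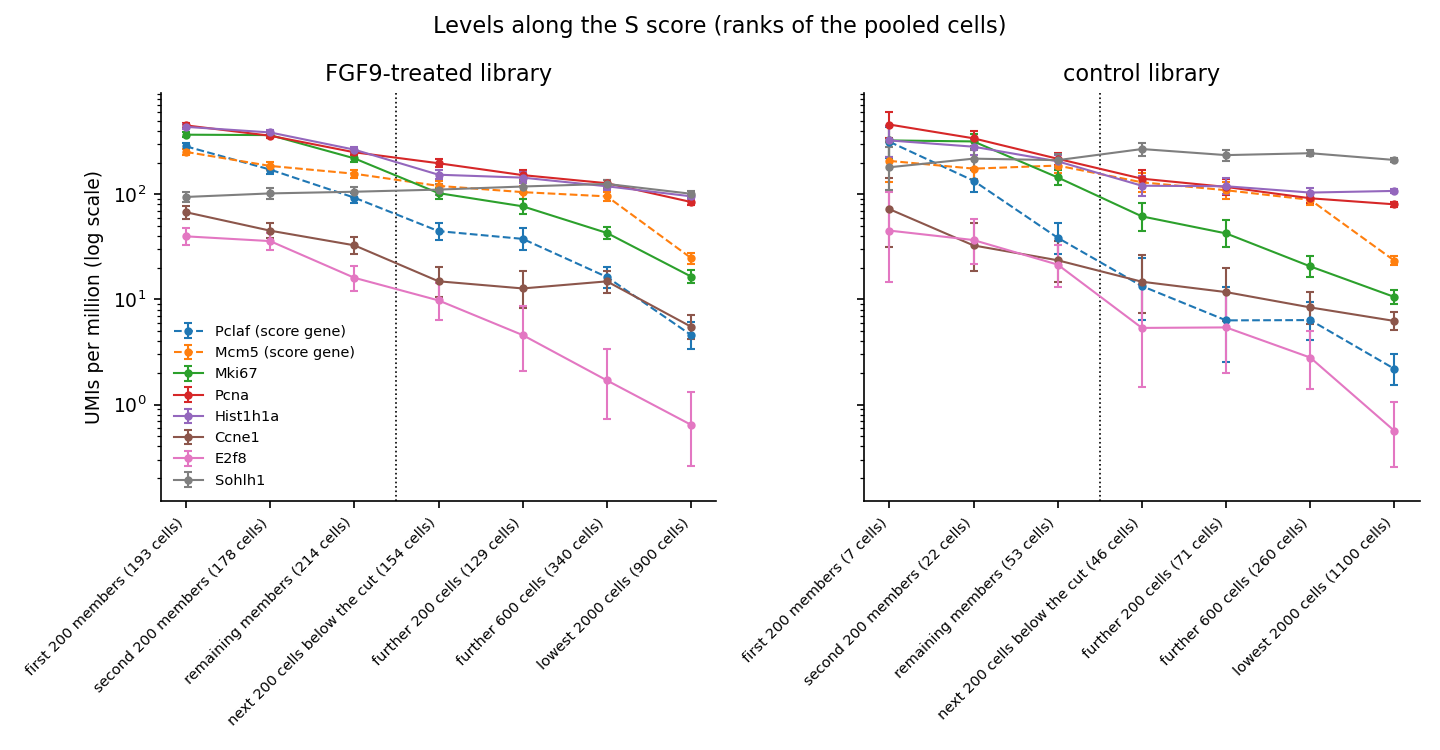
CPM on a log axis of 8 genes in bins of falling S score, in the FGF9-treated (left) and control library (right), with 95% Poisson intervals; dashed lines are score genes and the dotted line is the border of the members. E2f8 goes from 39.8 to 0.641 CPM in the FGF9-treated library while Sohlh1 stays between 94.2 and 125 CPM.

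Members differed among themselves in how far mitotic genes were up. They were ordered by M score and cut into 3 bins of 223, 222 and 222 cells, a cut that used the M score genes. Mki67 was at 146, 286 and 444 CPM from the lowest to the highest bin, Top2a at 456, 685 and 905 CPM and Ccna2 at 120, 169 and 201 CPM. Cluster histone mRNA in sum was at 739, 988 and 1063 CPM. Several replication genes rose over the same bins too, among them Prim1 (108, 128 and 167 CPM), Pcna (297, 349 and 367 CPM), Lig1 (241, 283 and 316 CPM) and Clspn, a fork checkpoint gene (235, 268 and 303 CPM). E2f8 was at 25.7, 24.1 and 38.6 CPM. Mcm3 (512, 521 and 510 CPM), Mcm5 (197, 197 and 191 CPM), Ccne1 (42.8, 46.6 and 46.3 CPM) and Cdt1 (104, 93.4 and 88.8 CPM) moved little or the other way, so the replication genes were mixed. These genes were named after their values were seen. The median UMIs of the bins were 14199, 15893 and 17056.5, so depth moved with the order, and its part was not tested. Within control members Mki67 was at 79.0, 228 and 318 CPM and within FGF9-treated members at 153, 297 and 464 CPM, so the order was alike in both libraries.

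Within members, the FGF9-treated and control cells were set side by side, although they do not lie alike on the score, with a median of 1890 against 1515 as given above. A gene was called when the log2 ratio passed 1 with its interval off 0, among genes with at least 20 CPM in either. Of 6857 genes 105 were higher in FGF9-treated members (1.53%) and 74 lower (1.08%). Of these calls 118 had 20 CPM in the higher library alone. In cells of neither set it was 74 higher (1.08%) and 42 lower (0.611%) of 6878 genes. The 82 control members carried 1535588 UMIs, so that a gene at 20 CPM rests on about 31 UMIs there, and the ratios are the least precise of those given. With 400 cells of each library ranked, 301 control and 391 FGF9-treated members gave 201 and 135 genes.

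Genes known to respond to FGF were among the widest on the higher side. Etv5, an ETS factor needed for SSC renewal, was at 1.95 CPM (3 UMIs) in control members and 29.2 CPM in FGF9-treated ones, a log2 ratio of 3.90 (2.34 to 6.19). In cells of neither set it was at 1.85 and 28.8 CPM. Its relative Etv4 had 3.01 (1.95 to 4.33) in members and 4.30 in cells of neither set. Dusp6, an ERK phosphatase, was at 8.47 and 53.2 CPM in members and at 5.71 and 52.9 CPM in the others. Of 10 FGF and ERK genes compared 7 were higher and none lower, and of 5 SSC markers 4 were higher, Etv5, Ret, Gfra1 and Esrp1. Ret was at 22.8 and 85.3 CPM and Gfra1, the GDNF co-receptor, at 16.3 and 48.6 CPM. In glycolysis 8 of 13 were higher, with Ldha at 55.4 and 148 CPM and Aldoa at 170 and 374 CPM. The median log2 ratio of this list was 1.09 in members and 0.99 in cells of neither set. Pfkp, Adm and Serpinh1 completed the 6 widest, with ratios of 3.33, 2.82 and 2.42.

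On the lower side stood Dpysl3 (-3.53), Enpep (-3.36 in members and -2.26 in cells of neither set), the homeobox gene Nkx1-1 (-2.55 and -2.44), Tubb2b (-2.20 and -1.79), the p38 kinase gene Mapk13 (-1.94 and -1.10) and Timp2 (-1.76 and -1.67). Dpysl3 was at 19.8 and 2.47 CPM in control and FGF9-treated cells of neither set. Nkx1-1 went from 27.4 CPM in control members to 4.67 CPM in FGF9-treated ones. Of the differentiating markers Sohlh1 (211 and 101 CPM) and Dnmt3b (48.8 and 24.2 CPM) were lower, and of progenitor markers Neurog3 (33.9 and 13.3 CPM) and Sox3 (111 and 51.7 CPM) were lower and Lhx1 (8.47 and 32.6 CPM) higher. In cells of neither set Sohlh1 was at 225 and 115 CPM and Neurog3 at 45.8 and 15.6 CPM, with log2 ratios of -0.97 and -1.55. Kit, under the level needed, was at 18.9 and 2.90 CPM, a ratio of -2.70 (-3.50 to -1.90). Stra8 at 5.21 and 6.95 CPM (0.41, -0.65 to 1.68) differed by less than its counting error.

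**Figure D5:**
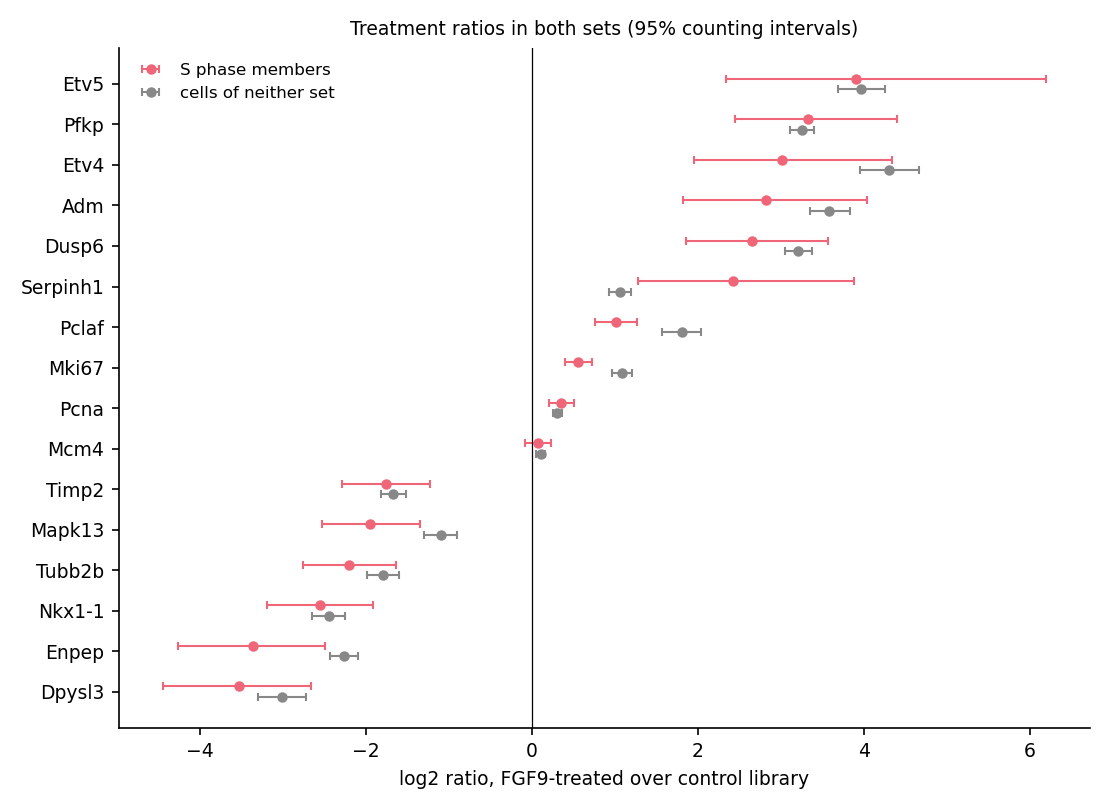
Log2 ratio of FGF9-treated over control CPM (horizontal) for 16 genes, in S phase members (red) and cells of neither set (grey), with 95% counting intervals. Etv5 stands at 3.90 in members and Dpysl3 at -3.53, while Mcm4 is at 0.07 with an interval that holds 0.

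The replication genes had small ratios between the treatments within members. None of the licensing, firing, polymerase or nucleotide supply genes was called in either direction, and the list medians were 0.15, 0.21, 0.11 and 0.21, against -0.01 over all 6857 genes. Mcm4 was at 251 and 263 CPM (0.07, -0.08 to 0.23), Gmnn at 240 and 248 CPM and Pcna at 274 and 350 CPM (0.35, 0.21 to 0.50). Of the score genes, on which members were chosen, Pclaf had 1.01 (0.76 to 1.27) and Rrm2 0.74 (0.40 to 1.11), against 1.80 and 0.49 in cells of neither set. Of 9 cluster histone genes 3 were higher, among them Hist1h1b at 93.1 and 206 CPM (1.14), which was at 33.7 and 65.8 CPM (0.97) in cells of neither set. Among the members past rank 400 Hist1h1b was at 40.7 CPM (control) and 139 CPM (FGF9-treated), and Pclaf at 38.5 and 92.8 CPM. The median S score of these members past rank 400 was 1391 (control) and 1456 (FGF9-treated), against 1515 and 1890 over all members. What part the place on the score has in these differences was not tested.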

How the data were processed

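Single-cell RNA was captured with a 10x 3′ v3.1 kit and a KIT antibody tag, in 1 control and 1 FGF9-treated library. The authors ran Cell Ranger (3.1.0 in the matrix headers, mm10), and the deposited matrices hold its UMI counts for each gene in each barcode, and the submitters' processing notes also list Seurat 3.1. No cell annotation was used here, so cells were chosen by the scores described, with at least 2000 genes, at most 20% mitochondrial UMIs and under 40 UMIs of Vim and S100a6.

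UMIs were summed per set and library and divided by the set's total (CPM). Log2 ratios carry exact conditional binomial intervals, CPM Poisson intervals and shares Clopper-Pearson intervals, all at 95% and for counting error only. With 1 library per treatment there is no test and no p-value. Score genes were left out of counts of calls. Doublets were not called, and an alternative dropped barcodes whose UMIs passed 2.5 times their library's median. Gene positions are from GENCODE vM21 and promoters from RefSeq. Python 3.11.15 with numpy 2.4.6, scipy 1.17.1 and pandas 2.3.3 was used, and edgeR 4.0.16 (TMM) and DESeq2 1.42.0 (size factors) served as alternative scalings. The calling rule for members over cells of neither set was tried on simulated Poisson counts. This covered neither the choice of members nor the other comparisons.

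Named genes were the score genes, from each list up to 6 genes of widest ratio and the defining member of each complex, the 10 highest and lowest outside the lists, the SSC, progenitor, differentiating and FGF lists and the 6 highest and lowest by treatment, and the 8 highest and lowest against the mitotic set. The members, lists and rules were chosen with earlier results of these data known. Some genes that this rule names are not reported here.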

Additional observations from a re-analysis of the deposited data

Results flagged for a closer look

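Among the named genes, 3 had, with both intervals off 0, a treatment ratio of one sign in S phase members and of the other sign in cells of neither set (the intervals cover counting error only, and no test over replicates exists). The log2 ratio of FGF9-treated over control was 0.28 in members and -0.11 in the other cells for Prim1, a difference of 0.40 (0.15 to 0.64). It was 0.20 and -0.14 for Incenp, a gene of the chromosomal passenger complex, a difference of 0.34 (0.13 to 0.54). For the ribosomal protein gene Rps7 it was -0.095 and 0.099, a difference of -0.19 (-0.24 to -0.15). The 81 ribosomal protein genes compared had medians of -0.063 and 0.095, so Rps7 went with its list. TMM and DESeq2 factors moved the ratios in members up by 0.053 and 0.047. Their effect on the ratios in cells of neither set is not given. There the interval of Prim1 was -0.21 to -0.012, so a small shift in scaling could undo its turn of sign. The share of all compared genes with such a turn of sign is not given.

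Barcodes under the minimum of 2000 genes, which no comparison used, also held S scores at or above that of rank 800. They were 5.11% of such barcodes in the FGF9-treated library (63 of 1234, 3.95 to 6.49) against 1.26% in control (13 of 1034). Barcodes under this minimum had a median of 1982 and 2066.5 UMIs in these libraries. At that depth very few UMIs of the score genes reach the score of rank 800, so counting error is large.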

How the results depend on the processing

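The share of members from the FGF9-treated library (87.7%) stayed above its 52.2% of all cells in every alternative that chose the cells anew. It was 94.2% with the 400 highest scores, 81.8% with 1200, 80.6% with the 3 MCM genes as the score, 78.1% on cells thinned to 5000 UMIs, 82.6% with a mitochondrial limit of 10%, and 56.5% with 400 cells of each library, where it is set by the choice. Against cells of neither set (271 higher, 95 lower), 159 were higher and 22 lower with 1200 cells, 80 and 4 with 400 of each library, 137 and 15 on thinned cells, 177 and 26 with a filter at 50 CPM, and 414 and 257 with none. The lower count was 33 with the MCM score, 32 with the 10% limit and 52 with DESeq2 size factors. Against the mitotic set (221 higher, 149 lower), the higher count was 122 with 1200 cells, 72 with 400 of each library (beside 109 lower, so that 39.8% of calls were higher in place of 59.7%), 141 on thinned cells and 122 at 50 CPM, and the lower count was 82 at 50 CPM and 238 with no filter. Between treatments within members (105 higher, 74 lower), it was 174 and 116 with the 400 highest scores, 201 and 135 with 400 of each library, 39 and 18 at 50 CPM, and 306 and 381 with no filter, where 44.5% were higher in place of 58.7%. With FGF9-treated members thinned at random to 82 cells, an alternative chosen after seeing the data, 118 were lower. A stricter filter leaves fewer genes to compare, and the other causes were not tested. The other 86 counts and shares were within 1.5 times their value or within its interval. No paired analysis was possible because each treatment had 1 library.

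The 82 control members hold 1535588 UMIs, against 9646395 in FGF9-treated members, so control values set the width of most intervals.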

Other observations

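Cells in both top sets, left out of the members, numbered 17 in control and 116 in the FGF9-treated library. Their Mki67 stood at 594 CPM, Top2a at 1087 CPM and Ccna2 at 254 CPM over both libraries, with Mcm3 at 494 CPM and Ccne1 at 35.0 CPM.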
